A study of Mus musculus with 12 samples.

Results

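Interferon-stimulated genes were followed across 4 dendritic cell (DC) populations sorted from mouse lungs. The list holds 42 genes, and a gene was represented by the probe set that carries its symbol and no other, the one with the highest mean signal where several did. On that rule 39 of the 42 genes had a probe set, all 39 passed the filter on low signals, and they were tested among 10929 genes. Isg15, Oas1g and Ifi44 had no probe set of their own and were not analysed here. The virus-sensing group of 12 genes holds 7 sensors and 5 members of the 2',5'-oligoadenylate synthetase (OAS) family, the Mx, guanylate-binding and immunity-related proteins form the GTPase group of 8, and 19 genes have other roles.

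All 12 samples came from male C57BL/6J mice of 8 to 12 weeks whose airways received 100 ng lipopolysaccharide (LPS) and 100 ug ovalbumin in 50 ul; lungs were taken 16 h later. Each population was sorted in 3 replicates, each from a pool of 20 mice, at a purity above 93%, and 50 ng RNA was amplified for an Affymetrix 3' expression array. The populations were conventional DCs with surface CD103 (CD103+ cDCs), CD11bhi conventional DCs with little CD14 (CD14lo cDCs), CD11bhi monocyte-derived DCs with much CD14 (CD14hi moDCs), and CD11bhi Ly6Chi monocyte-derived DCs (Ly6Chi moDCs, the inflammatory moDCs of the labels). Every group had inhaled LPS and ovalbumin, so these arrays show levels after the treatment and not induction by it. In bulk RNA of this kind, fewer cells of a type that express a gene and less RNA per cell cannot be told apart.

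Type I interferons bind a receptor made of Ifnar1 and Ifnar2, whose kinases Tyk2 and Jak1 phosphorylate Stat2. Stat2 and Irf9 are subunits of the complex ISGF3, which binds the interferon-stimulated response element (ISRE) in the promoters of antiviral genes. Interferon-gamma acts through another receptor, Jak1 and Jak2, and factors that bind gamma-activated sites. LPS starts the same chain through TLR4, the adaptor Ticam1, the kinases Tbk1 and Ikbke, and Irf3.

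The label of each population was set against markers. Itgae, which encodes CD103, had a signal of 15178 ± 2597 (SD, n = 3) in CD103+ cDCs, 855 ± 345 in CD14lo cDCs, 140.1 ± 19.5 in CD14hi moDCs and 86.5 ± 49.2 in Ly6Chi moDCs. Itgam, which encodes CD11b, was at 50.7 ± 20.5 in CD103+ cDCs and between 1115 ± 222 and 2188 ± 177 in the other populations. Cd14 reached 11669 ± 2479.7 in CD14hi moDCs and 10836 ± 1701 in Ly6Chi moDCs, against 968 ± 425 and 1537 ± 245 in the CD103+ and CD14lo cDCs, and the cDC genes Flt3 and Zbtb46 were both lowest in Ly6Chi moDCs. Other markers separated the labels less well. By limma, CD103+ cDCs exceeded CD14hi moDCs for 3 of 5 tested CD103+ cDC markers (16.9% of all genes) and were lower for 0 (20.3%). Cadm1, another of the 5, was at 3811 ± 816 in CD103+ cDCs, 2868 ± 693 in CD14hi moDCs and 262 ± 48.4 in CD14lo cDCs. Fcgr1, a marker of monocyte-derived cells, was at 174 ± 92 in CD103+ cDCs, 2418 ± 222 in CD14lo cDCs and 4363 ± 48.2 in CD14hi moDCs. The probe set for Ly6c carries several symbols and was not analysed here. Array medians ran from 72.4 to 109, and arrays of a population correlated at 0.973 to 0.983 over the genes tested. The ratio of the 3' to the 5' Gapdh probe set, a sign of RNA integrity, was 3.26 and 3.27 on CD103+ cDC replicates 1 and 3 and between 1.48 and 2.29 on the other 10 arrays.

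Markers of other cell types also differed. Of 7 neutrophil markers, 5 had a probe set, and their summed signal was 3905 to 4242 in Ly6Chi moDCs, 261 to 1888 in CD103+ cDCs, 925 to 1328 in CD14lo cDCs and 1075 to 2155 in CD14hi moDCs. Of the 4 neutrophil markers tested, limma called 3, Csf3r, S100a8 and S100a9, higher in Ly6Chi than in CD14hi moDCs (6.82% of all genes). The same 3 were called higher in Ly6Chi moDCs than in CD14lo cDCs (11.2%) and CD103+ cDCs (24.3%). The neutrophil receptor gene Cxcr2 averaged at most 45.3 in any population and did not pass the filter. The summed signal of 7 lung epithelial markers was 4544 to 8718 in CD103+ cDCs, and 1600 to 4168, 2611 to 3557 and 1869 to 2819 in CD14lo cDCs, CD14hi moDCs and Ly6Chi moDCs. Siglech, a plasmacytoid DC gene, stood at 344 ± 31.4 in CD103+ cDCs and at 116 ± 42.8 in CD14lo cDCs, 85.7 ± 22.3 in CD14hi moDCs and 82.5 ± 1.48 in Ly6Chi moDCs, while the summed signal of the 7 plasmacytoid markers with a probe set overlapped between all populations. Those 7 did not share 1 direction. By limma, CD103+ cDCs exceeded CD14hi moDCs for 3, Siglech, Ccr9 and Pacsin1 (16.9% of all genes), and were lower for 1, Klk1 (20.3%). Of 8 alveolar macrophage markers, 6 had a probe set. Their summed signal was 1122 to 4877 in CD103+ cDCs, 1014 to 8207 in CD14lo cDCs, 1671 to 4426 in CD14hi moDCs and 6096 to 8130 in Ly6Chi moDCs. Among them Chil3 averaged 6685 ± 1013 in Ly6Chi moDCs and at most 1642 ± 1993 elsewhere, while Fabp1 was lowest there, at 29.6 ± 16.6. The part of these other cell types in the interferon-stimulated signals was not tested.

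Promoter sequences were read for the listed genes. These genes were listed as interferon-stimulated, so the share of ISRE letters in the whole list cannot bear on the order of populations. A link between the letters and that order was not tested. RefSeq promoters on GRCm38.p6, each 300 bases from 250 upstream to 50 downstream of the gene start, were found for 30 of the 42 genes. The letters GAAANNGAAA, or TTTCNNTTTC on the other strand, which are the core of an ISRE, stood in 17 of the 30 (56.7%), against 3.44% of all 32851 promoters in that table and 3.99% of its 27025 genes, counted like the 30 by any promoter of a gene. The gamma-activated core TTCNNNGAA, which reads the same on both strands, stood in 7 of the 30 (23.3%), against 8.3% of all promoters and 9.55% of the genes. Among the genes called highest in Ly6Chi moDCs against each other population, 8 of the 12 with an entry held the ISRE letters, and 7 of the 15 other tested genes did. The stretches that follow come from 6 of those 8 genes and are each written 5' to 3' on the strand of the gene. Capitals mark 1 match in each. In Oas1a and Gbp3 a further match overlaps the marked one and runs on into the lower-case letters. Ifit1 and Ifit3 each hold another match closer to the gene start, from 85 and 122 bases before it, which is not marked.
Ifit1: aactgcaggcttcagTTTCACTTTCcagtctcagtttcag
Ifit3: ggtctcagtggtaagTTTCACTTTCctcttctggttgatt
Oas1a: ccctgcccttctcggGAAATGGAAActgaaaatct
Rsad2: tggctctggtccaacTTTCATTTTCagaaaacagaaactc
Igtp: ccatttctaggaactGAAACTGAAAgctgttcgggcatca
Gbp3: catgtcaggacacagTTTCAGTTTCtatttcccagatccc
They lie at chr19:34640770-34640809 (Ifit1, plus strand), chr19:34583358-34583397 (Ifit3, plus), chr5:120907526-120907560 (Oas1a, minus), chr12:26456548-26456587 (Rsad2, minus), chr11:58199507-58199546 (Igtp, plus) and chr3:142559984-142560023 (Gbp3, plus). All are upstream of the gene start, the matches beginning 104, 156, 20, 120, 34 and 45 bases before it in the same order. The letters are not limited to genes of that group, as a pair of genes that did not pass limma's F test between the 4 populations shows.
Gbp2: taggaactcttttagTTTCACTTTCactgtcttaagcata
Stat2: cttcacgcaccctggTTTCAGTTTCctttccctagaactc
Gbp2 lies at chr3:142620589-142620628 (plus strand, match from 59 bases before the start) and Stat2 at chr10:128270261-128270300 (plus strand, from 222 bases before it). A match describes the letters in the window and not a bound site, and a gene without one, such as Ifi47 or Cmpk2, lacks only these letters in these bases.

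Most of the 39 genes were highest in Ly6Chi moDCs, and most of those were lowest in CD103+ cDCs. The mean log2 level was highest in Ly6Chi moDCs for 30 genes, which is 76.9% of the 39 against 29.1% of all genes tested, and 22 of these had their lowest mean in CD103+ cDCs (19.7% of all genes had that order). In 7 genes, Dhx58, Eif2ak2, Ifit2, Mx2, Irgm1, Usp18 and Dtx3l, Ly6Chi moDCs had the highest and CD14hi moDCs the lowest mean (5.06% of all genes). Another population than Ly6Chi moDCs was highest for 9 genes (70.9% of all genes). Pair by pair and on the same log2 scale, the Ly6Chi moDC mean exceeded the CD14hi moDC mean for 37 genes (49% of all genes) and the CD14lo cDC mean for 32 (48.7%), and the CD103+ cDC mean was below the CD14lo cDC mean for 31 (52.5%). In 21 genes all 3 Ly6Chi moDC arrays lay above the other 9 arrays (7.36% of all genes), and in 14 genes all 3 CD103+ cDC arrays lay below the other 9 (12.2% of all genes). The average log2 level over the 39 genes was 10.27 ± 0.14 (SD, n = 3) in CD103+ cDCs, 10.81 ± 0.16 in CD14lo cDCs, 10.67 ± 0.08 in CD14hi moDCs and 11.30 ± 0.04 in Ly6Chi moDCs. Levels are log2 of the signal plus 50.0003, a fold is 2 to the power of a difference on that scale and understates the change of dim genes, and calls are limma tests over all 10929 genes that pass 0.05 after Benjamini-Hochberg adjustment.

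**Figure D1:**
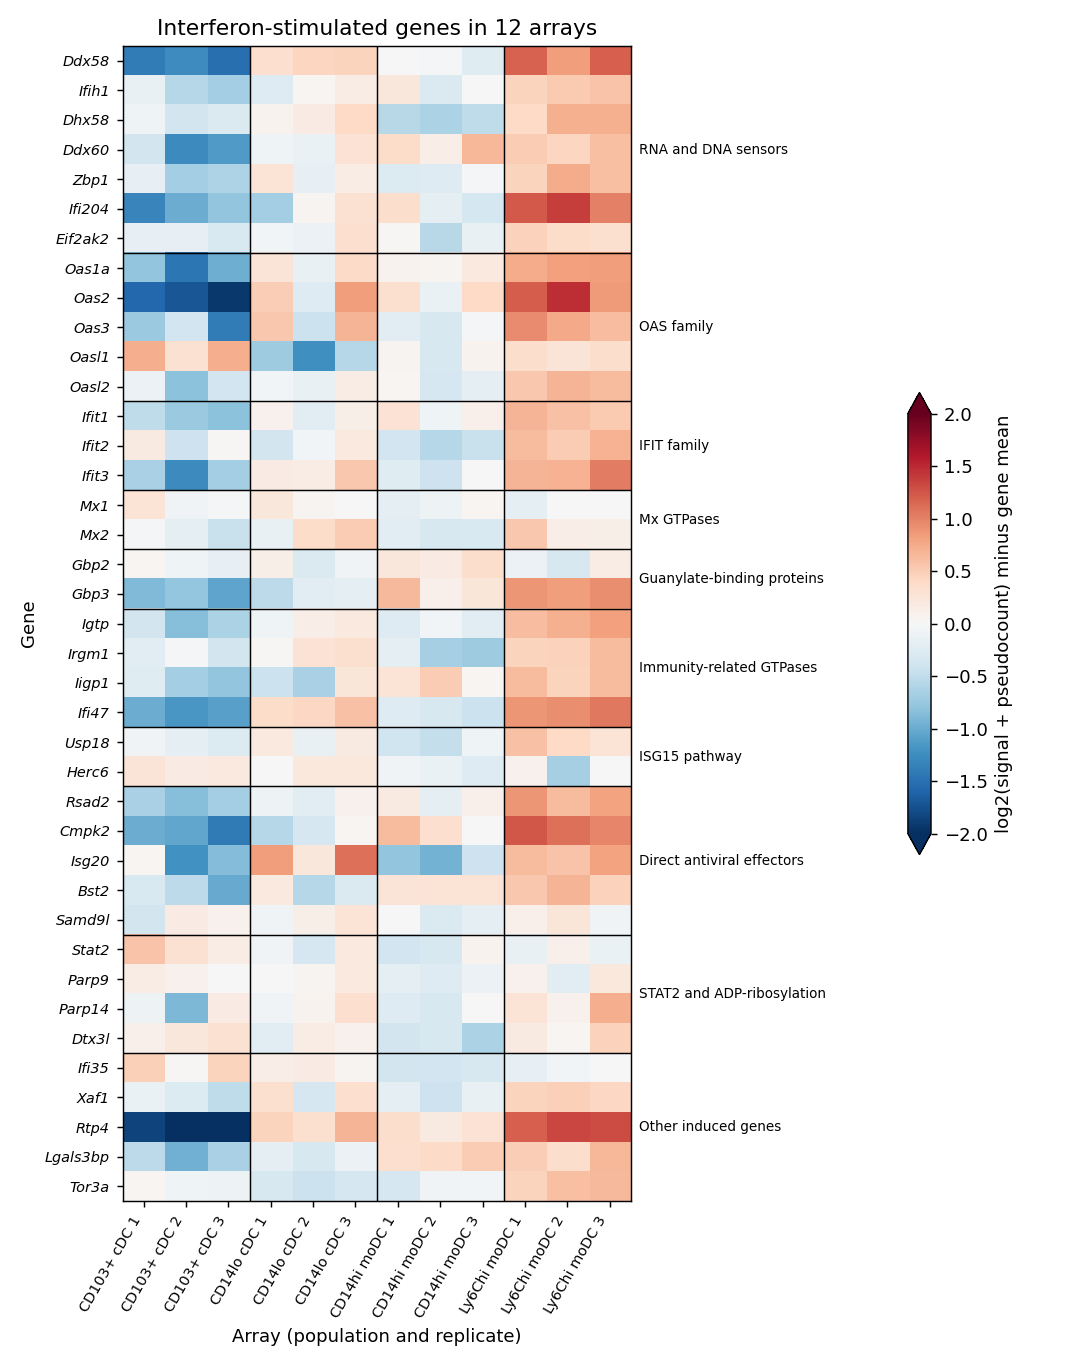
Heat map of the 39 genes (rows, grouped by role) on the 12 arrays (columns, grouped by population). Colour is log2(signal + 50.0003) minus the mean of the gene over the 12 arrays, limited to 2 in either direction, so rows show the order of arrays within a gene and not which gene is brighter; the Ly6Chi moDC columns carry the highest mean in 30 rows.

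Between the 4 populations, 31 of the 39 genes differed by limma's F test, where 51.1% of all genes did. The 6 genes Mx1, Mx2, Gbp2, Herc6, Samd9l and Parp9 were called in no pair of populations (40% of all genes were not). Ly6Chi moDCs were called higher than CD14hi moDCs for 25 genes (6.82% of all genes were called in that direction) and lower for none, where 11.4% of all genes were lower. At an unadjusted limma p under 0.05, 29 genes were higher and 1, Gbp2, was lower. The shares of all genes given here are for adjusted calls and were not counted at that threshold. No other tool was run. The median difference was 0.69 over the 39 genes and -0.01 over all genes. Leaving out any 1 array gave 19 to 26 calls, and 19 of the 25 were called in every one of these fits. With each array centred on its median, all genes split into 1851 higher and 831 lower in place of 745 and 1248, and the 39 genes into 30 higher and 0 lower.

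The remaining pairs placed CD103+ cDCs low. CD103+ cDCs were called lower than CD14lo cDCs for 18 genes (15.3% of all genes) and higher for 1, Oasl1 (13.4%), lower than CD14hi moDCs for 17 (20.3%) and higher for 4 (16.9%), and lower than Ly6Chi moDCs for 29 (24.3%) and higher for 1, Ifi35 (23.2%). Median differences over the 39 genes were -0.44, -0.30 and -1.06 in these comparisons, against -0.03, -0.01 and -0.02 over all genes. Ly6Chi moDCs exceeded CD14lo cDCs for 21 genes (11.2%) and were lower for none (14%). At an unadjusted limma p under 0.05 the counts were 24 and 0, a threshold at which the share of all genes was not counted. CD14hi moDCs and CD14lo cDCs were the pair with fewest calls, 3 genes higher in CD14hi moDCs (9.24%) and 6 lower (6.95%). Median centring changed the split of all genes from 1228 higher and 1530 lower to 1593 and 1099 in Ly6Chi moDCs against CD14lo cDCs, and from 1010 and 760 to 792 and 943 in CD14hi moDCs against CD14lo cDCs, where the 39 genes gave 22 higher and 0 lower, and 3 higher and 7 lower. In CD103+ cDCs against CD14hi moDCs it turned the split of all genes from 1851 higher and 2215 lower to 2146 and 1775, and the 39 genes gave 4 higher and 14 lower. With both cDC populations set against both moDC populations, 2 genes were higher in cDCs (20.8%) and 21 lower (20.7%); that comparison mixes unlike populations, since CD14lo cDCs had a higher mean than CD14hi moDCs for 26 of the 39 genes (50.9% of all genes). The pairwise comparisons share arrays and are not independent of each other.

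**Figure D2:**
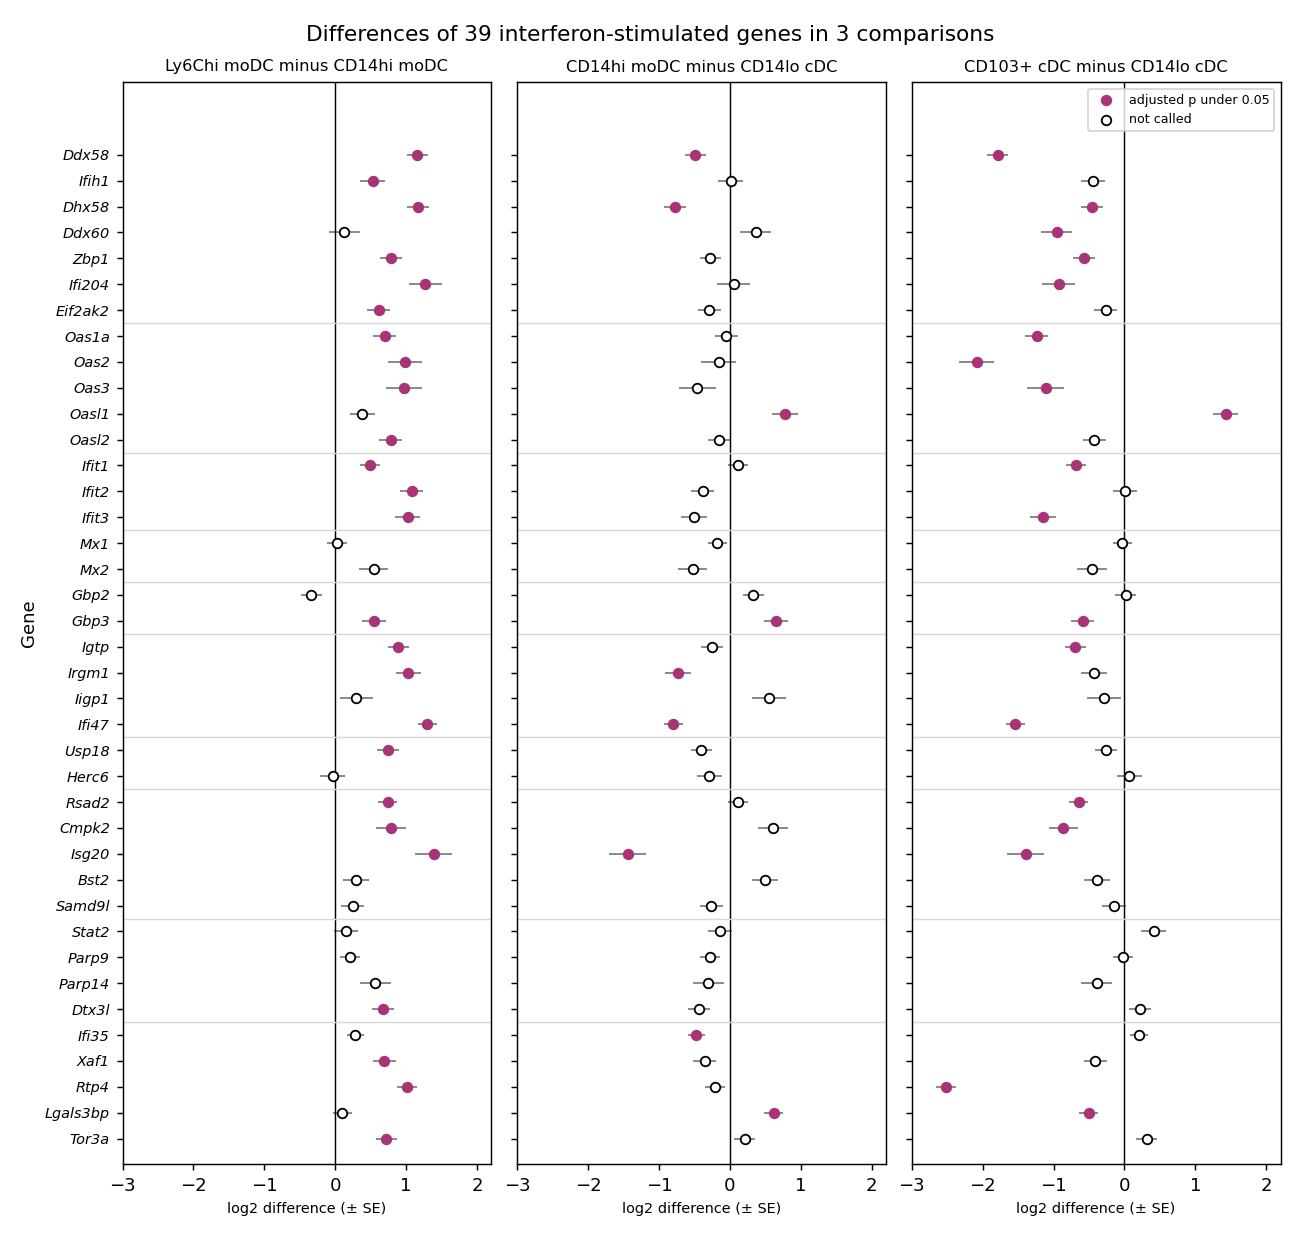
Log2 differences (x axis, log2 of signal plus 50.0003) of each of the 39 genes (rows) in 3 comparisons, with bars of 1 standard error from limma. The differences between Ly6Chi and CD14hi moDCs lie to the right of 0 for 37 of the 39 genes.

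A group of 17 genes was called higher in Ly6Chi moDCs than in each of the other 3 populations, where 3.39% of all genes were. They were Ddx58, Ifih1, Zbp1 and Ifi204 among the sensors, Oas1a, Oas2 and Oasl2 of the OAS family, Ifit1, Ifit2 and Ifit3, the GTPase genes Gbp3, Igtp and Ifi47, and Rsad2, Cmpk2, Rtp4 and Tor3a. The count was 11 without Ly6Chi moDC replicate 2, 12 without replicate 1 and 13 without replicate 3; 10 of the 17 kept all their calls whichever array was left out, and Cmpk2, Gbp3, Ifih1, Ifit1, Ifit3, Oas2 and Zbp1 lost at least 1. Likewise, 14 genes were called lower in CD103+ cDCs than in each other population (9.95% of all genes), and 12 genes were in both groups (1.64% of all genes). Without CD103+ cDC replicates 1 and 3, the arrays with the high Gapdh ratio, those 2 counts were 13 lower in CD103+ cDCs and 17 higher in Ly6Chi moDCs.

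All 12 virus-sensing genes and 5 of 8 GTPase genes differed between populations, where 51.1% of all genes did, so that the GTPase share lay near that of all genes; a difference between the groups was not tested. Ly6Chi moDCs held the highest mean for 11 virus-sensing and 6 GTPase genes (29.1% of all genes) and were called above all 3 others for 7 and 3 (3.39%). Ly6Chi over CD14hi moDCs gave 10 higher calls and a median of 0.78 for the virus-sensing genes, and 4 higher calls and a median of 0.54 for the GTPase genes (6.82% of all genes were higher). In CD103+ against CD14lo cDCs the medians were -0.75 and -0.44. Of the other 19 genes, 14 differed and 13 had their highest mean in Ly6Chi moDCs.

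Among the sensors, Ddx58 encodes RIG-I, which binds short RNA with a 5' triphosphate. Its signal was 385, 428 and 352 in CD103+ cDCs, 1399, 1487 and 1499 in CD14lo cDCs, 1088, 1078 and 919 in CD14hi moDCs and 2523, 1992 and 2561 in Ly6Chi moDCs. No 2 populations overlapped. CD103+ cDCs were 3.46-fold lower than CD14lo cDCs (log2 difference -1.79 ± 0.15, adjusted p = 3.9e-08) and 5.48-fold lower than Ly6Chi moDCs (log2 difference -2.45 ± 0.15, adjusted p = 1.4e-10). Ly6Chi moDCs exceeded CD14hi moDCs 2.23-fold (log2 difference 1.15 ± 0.15, adjusted p = 1.7e-05) and CD14lo cDCs 1.58-fold (log2 difference 0.66 ± 0.15, adjusted p = 0.0025). With the mean of its 3 probe sets in place of the brightest, the last difference had an adjusted limma p of 0.066, and the dimmest of those probe sets was highest in CD14lo cDCs. CD14hi moDCs were lower than CD14lo cDCs by limma (log2 difference -0.49 ± 0.15, adjusted p = 0.03), a call lost when any 1 of those 6 arrays was left out (adjusted p from 0.052 to 0.12).

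Ifih1 encodes MDA5, the sensor of long double-stranded RNA, and spanned a smaller range. Its mean was 1143 ± 238 (SD, n = 3), 1556 ± 220.3, 1573 ± 284 and 2263 ± 104 in CD103+ cDCs, CD14lo cDCs, CD14hi moDCs and Ly6Chi moDCs. CD103+ cDCs were 1.96-fold below Ly6Chi moDCs (log2 difference -0.97 ± 0.17, adjusted p = 0.00011). The excess of Ly6Chi over CD14hi moDCs (log2 difference 0.53 ± 0.17, adjusted p = 0.038) was lost without CD14hi moDC replicate 2 (adjusted p = 0.19) or 3 (0.079) and without Ly6Chi moDC replicate 1 (0.069), 2 (0.089) or 3 (0.11). It was also lost with quantile normalization (limma adjusted p = 0.056), without the filter (0.057) and without the intensity trend (0.061). Dhx58 encodes LGP2, a relative of RIG-I without signalling domains that modulates both sensors. It was at 1087, 886 and 945 in CD103+ cDCs, 1216, 1305 and 1549 in CD14lo cDCs, 778, 731 and 801 in CD14hi moDCs and 1544, 1929 and 1935 in Ly6Chi moDCs. On this brightest probe set CD14hi moDCs, not CD103+ cDCs, held the lowest values, and no CD14hi moDC array reached the others. The dimmer probe sets of Dhx58 had their lowest means in CD103+ cDCs instead, 804 against 821 in CD14hi moDCs and 118 against 155. Ly6Chi moDCs were 2.25-fold above CD14hi moDCs (log2 difference 1.17 ± 0.15, adjusted p = 1.7e-05), and CD14hi moDCs were 1.71-fold below CD14lo cDCs (log2 difference -0.77 ± 0.15, adjusted p = 0.0013; adjusted p = 0.069 with the mean of its 3 probe sets).

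Ddx60, a helicase reported to aid RIG-I, separated the CD103+ cDCs from the rest. Its signals were 390.3, 185 and 209 in CD103+ cDCs, 489.8, 472 and 645 in CD14lo cDCs, 684, 578 and 849 in CD14hi moDCs and 760.1, 719 and 819 in Ly6Chi moDCs. CD103+ cDCs were 2.73-fold below Ly6Chi moDCs (log2 difference -1.45 ± 0.22, adjusted p = 2.6e-05) and 1.94-fold below CD14lo cDCs (log2 difference -0.96 ± 0.22, adjusted p = 0.0029). The moDC populations overlapped and their difference was 0.13 ± 0.22 (adjusted p = 0.76), so Ddx60 was the 1 sensor of 7 not called between them. Ifi204 belongs to the HIN-200 family of nuclear and cytosolic DNA-binding proteins. It gave 425, 545 and 635 in CD103+ cDCs, 688, 1180.1 and 1409 in CD14lo cDCs, 1466, 1001 and 878 in CD14hi moDCs and 2716, 3054 and 2343 in Ly6Chi moDCs. The CD14lo cDC and CD14hi moDC arrays overlapped, with CD103+ cDCs below and Ly6Chi moDCs above them. Ly6Chi moDCs were 2.4-fold above CD14hi moDCs (log2 difference 1.27 ± 0.23, adjusted p = 0.00066) and 4.74-fold above CD103+ cDCs (CD103+ minus Ly6Chi -2.24 ± 0.23, adjusted p = 2.1e-07). The lower level in CD103+ than in CD14lo cDCs (log2 difference -0.93 ± 0.23, adjusted p = 0.0055) had an adjusted p of 0.082 without CD103+ cDC replicates 1 and 3.

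Zbp1 senses Z-form nucleic acids and can start necroptosis, and Eif2ak2 encodes PKR, the kinase that halts translation on double-stranded RNA. Zbp1 averaged 3997 ± 834, 5937 ± 896, 4879.8 ± 478 and 8436 ± 877 in CD103+ cDCs, CD14lo cDCs, CD14hi moDCs and Ly6Chi moDCs, and all 3 Ly6Chi moDC arrays lay above the other 9. Ly6Chi over CD14hi moDCs was 1.72-fold (log2 difference 0.78 ± 0.15, adjusted p = 0.0012). The excess over CD14lo cDCs (log2 difference 0.51 ± 0.15, adjusted p = 0.02) was lost without CD14lo cDC replicate 2 (adjusted p = 0.11) or Ly6Chi moDC replicate 2 (0.088) or 3 (0.053). Eif2ak2 varied least of the 7 sensors, from 1146 ± 235 in CD14hi moDCs to 1755 ± 89.4 in Ly6Chi moDCs. That difference (log2 difference 0.61 ± 0.17, adjusted p = 0.014) was lost without CD14hi moDC replicate 2 (adjusted p = 0.1) or Ly6Chi moDC replicate 1 (0.055). Its low end depended on the probe set. Another Eif2ak2 probe set was lowest in CD103+ cDCs, 1041 against 1193 in CD14hi moDCs, and the dimmest in CD14hi moDCs, 414 against 420 in CD103+ cDCs.

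**Figure D3:**
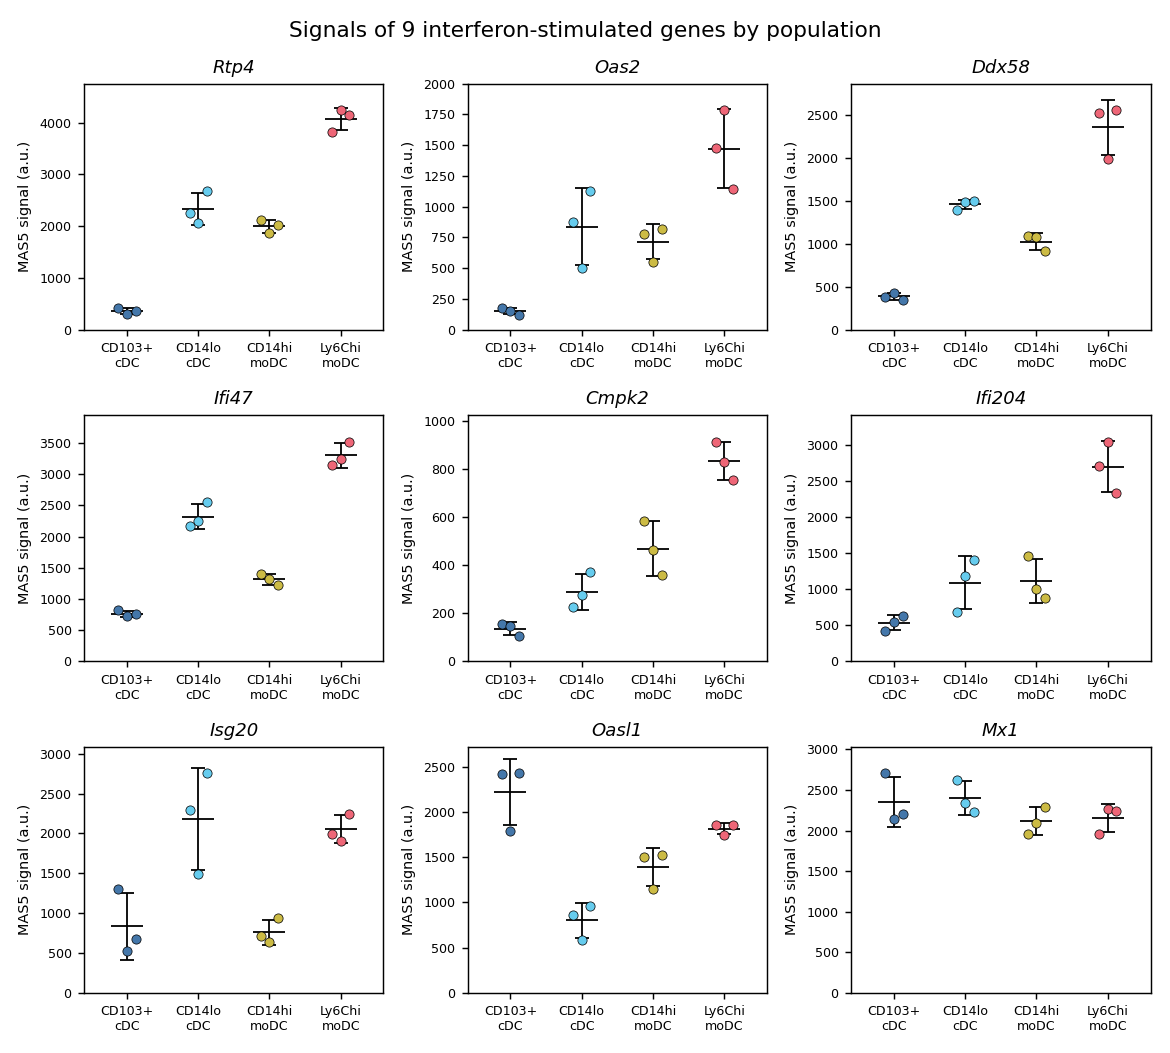
Signals (y axis, deposited MAS5 signal, linear from 0) of 9 genes in the 4 populations; points are the 3 arrays and bars the mean with SD. Rtp4, Oas2, Ddx58, Ifi47, Cmpk2 and Ifi204 were lowest in CD103+ cDCs and highest in Ly6Chi moDCs, Isg20 was high in CD14lo cDCs and Ly6Chi moDCs, Oasl1 was highest in CD103+ cDCs, and Mx1 overlapped in all populations.

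The OAS enzymes make 2',5'-linked oligoadenylates that activate RNase L, and 4 of the 5 followed the common order. Oas2 showed the widest range, with 174, 153 and 124 in CD103+ cDCs, 878, 504 and 1126 in CD14lo cDCs, 774, 555 and 822 in CD14hi moDCs and 1480.2, 1786 and 1145 in Ly6Chi moDCs. Every CD103+ cDC array was below every other array, and the lowest Ly6Chi moDC array was just above the highest CD14lo cDC array. CD103+ cDCs were 4.25-fold below CD14lo cDCs (log2 difference -2.09 ± 0.24, adjusted p = 2.8e-06) and 7.52-fold below Ly6Chi moDCs (log2 difference -2.91 ± 0.24, adjusted p = 1.1e-08). Ly6Chi moDCs were 1.98-fold above CD14hi moDCs (log2 difference 0.98 ± 0.24, adjusted p = 0.0073). The excess over CD14lo cDCs (log2 difference 0.83 ± 0.24, adjusted p = 0.017) was lost without CD14lo cDC replicate 2 (adjusted p = 0.11) or Ly6Chi moDC replicate 1 (0.052) or 2 (0.089).

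Oas1a was much closer within populations. Its signals were 2489, 1568 and 2176 in CD103+ cDCs, 5230.0, 3901 and 5666 in CD14lo cDCs, 4557, 4537 and 4990.3 in CD14hi moDCs and 7334, 7738 and 7823 in Ly6Chi moDCs. CD14lo cDCs and CD14hi moDCs overlapped, and neither overlapped the CD103+ cDCs below or the Ly6Chi moDCs above. CD103+ cDCs were 2.35-fold below CD14lo cDCs (log2 difference -1.23 ± 0.16, adjusted p = 1.2e-05), and Ly6Chi moDCs were 1.62-fold above CD14hi moDCs (log2 difference 0.70 ± 0.16, adjusted p = 0.0047). Oas3 had 787, 1023 and 481 in CD103+ cDCs, 2000.4, 993 and 2202 in CD14lo cDCs, 1162, 1072 and 1313 in CD14hi moDCs and 2654, 2337 and 2099.6 in Ly6Chi moDCs, and its CD14lo cDC arrays spread widely. CD103+ cDCs were 3.08-fold below Ly6Chi moDCs (log2 difference -1.62 ± 0.26, adjusted p = 4e-05). The excess of Ly6Chi over CD14hi moDCs (log2 difference 0.97 ± 0.26, adjusted p = 0.012) was lost without Ly6Chi moDC replicate 1 (adjusted p = 0.054) and, narrowly, without CD14hi moDC replicate 2. Oasl2, a synthetase-like protein, averaged 2851 ± 678, 3785 ± 416, 3419 ± 454 and 5874 ± 287 in CD103+ cDCs, CD14lo cDCs, CD14hi moDCs and Ly6Chi moDCs, with Ly6Chi over CD14hi moDCs at 1.72-fold (log2 difference 0.78 ± 0.16, adjusted p = 0.0018).

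Oasl1 stood apart from the family. It encodes a synthetase-like protein without enzyme activity that in the mouse represses translation of Irf7. Its signals were 2425, 1795 and 2432 in CD103+ cDCs, 864, 586 and 956 in CD14lo cDCs, 1500.3, 1151 and 1519 in CD14hi moDCs and 1853, 1742 and 1852 in Ly6Chi moDCs. CD14lo cDCs were lowest, with no array reaching those of another population, and CD103+ cDCs were highest by mean though 1 of their arrays lay within the Ly6Chi moDC range. That array was replicate 2, and replicates 1 and 3 are those with the high Gapdh ratio. Without replicates 1 and 3 the log2 difference of CD103+ cDCs from CD14hi moDCs was 0.37, in place of 0.65. CD103+ cDCs were 2.69-fold above CD14lo cDCs (log2 difference 1.43 ± 0.18, adjusted p = 7.7e-06), the 1 gene of the 39 called in that direction. Ly6Chi moDCs were 2.23-fold (log2 difference 1.16 ± 0.18, adjusted p = 7.6e-05) and CD14hi moDCs 1.71-fold (log2 difference 0.77 ± 0.18, adjusted p = 0.0053) above CD14lo cDCs. The difference between CD103+ cDCs and Ly6Chi moDCs was 0.27 ± 0.18 (adjusted p = 0.24).

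The IFIT proteins bind viral RNA and block its translation, and all 3 measured members were highest in Ly6Chi moDCs on every array. Ifit1 was at 1847, 1564 and 1473 in CD103+ cDCs, 2811, 2253 and 2888 in CD14lo cDCs, 3255, 2504 and 2858 in CD14hi moDCs and 4253, 3994 and 3832 in Ly6Chi moDCs. Ifit3 was at 1394, 888 and 1365 in CD103+ cDCs, 2495, 2451 and 3245 in CD14lo cDCs, 1861, 1655 and 2188 in CD14hi moDCs and 3566, 3617 and 4527 in Ly6Chi moDCs. In both genes, whose promoter stretches are given above, the CD103+ cDC arrays were below all others. CD103+ cDCs were 2.44-fold below Ly6Chi moDCs for Ifit1 (log2 difference -1.29 ± 0.14, adjusted p = 5.9e-07) and 3.16-fold below for Ifit3 (log2 difference -1.66 ± 0.18, adjusted p = 3.6e-07). Ifit3 was 2.03-fold higher in Ly6Chi than in CD14hi moDCs (log2 difference 1.02 ± 0.18, adjusted p = 0.00044).

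Some of these calls were close to the threshold and were lost in several of the fits that left out an array. Ifit1 in Ly6Chi against CD14hi moDCs (log2 difference 0.49 ± 0.14, adjusted p = 0.023) was lost without CD14hi moDC replicate 2 (adjusted p = 0.13) or 3 (0.06) or Ly6Chi moDC replicate 1 (0.087) or 2 (0.056). Ifit3 in Ly6Chi moDCs against CD14lo cDCs (log2 difference 0.51 ± 0.18, adjusted p = 0.043) was lost in 6 of the 12 fits that left out an array (adjusted p up to 0.18). Quantile normalization also ended both calls (limma adjusted p = 0.056 for Ifit1 and 0.065 for Ifit3), and the Ifit3 call did not hold without the filter (0.071) or the intensity trend (0.075). Ifit2 differed from its relatives at the low end. Its signals were 2847, 1873 and 2574 in CD103+ cDCs, 1949, 2410.5 and 2879 in CD14lo cDCs, 1924, 1678 and 1843 in CD14hi moDCs and 3914, 3609.8 and 4129.7 in Ly6Chi moDCs. CD103+ and CD14lo cDCs overlapped (log2 difference 0.01 ± 0.17, adjusted p = 0.98) and CD14hi moDCs had the lowest mean, 2.11-fold below Ly6Chi moDCs (Ly6Chi minus CD14hi 1.08 ± 0.17, adjusted p = 0.00011).

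Mx1 and Mx2 encode dynamin-like GTPases that trap viral components, and neither was called in any comparison. Mx1 carries a disabling deletion in most laboratory strains, C57BL/6 included, and its transcript was at 2710.1, 2145 and 2204 in CD103+ cDCs, 2629, 2337 and 2226 in CD14lo cDCs, 1955, 2092 and 2295 in CD14hi moDCs and 1957, 2261 and 2241 in Ly6Chi moDCs. All 4 populations overlapped, and the F test gave an adjusted p of 0.58. Mx2 was at 275, 243 and 194 in CD103+ cDCs, 248, 379 and 420.2 in CD14lo cDCs, 234, 215 and 219 in CD14hi moDCs and 431, 312 and 308 in Ly6Chi moDCs. limma gave an adjusted F test p of 0.052; at an unadjusted limma p under 0.05 it differed in 4 of 6 pairs and Mx1 in 0.

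The guanylate-binding proteins attack the membranes of vacuoles that hold pathogens. Gbp3 differed in level between all populations without overlap, from 545, 596 and 478 in CD103+ cDCs through 711, 888 and 916 in CD14lo cDCs and 1677, 1133 and 1254 in CD14hi moDCs to 1978, 1904 and 2050.4 in Ly6Chi moDCs. Both moDC populations together exceeded both cDC populations 2.33-fold (cDC minus moDC -1.22 ± 0.12, adjusted p = 9.7e-08), and Ly6Chi moDCs exceeded CD14lo cDCs 2.29-fold (log2 difference 1.20 ± 0.17, adjusted p = 2e-05). The smaller step from CD14hi to Ly6Chi moDCs (log2 difference 0.55 ± 0.17, adjusted p = 0.026) was lost without CD14hi moDC replicate 2 (adjusted p = 0.14) or 3 (0.093) or Ly6Chi moDC replicate 1 (0.069), 2 (0.052) or 3 (0.085). Gbp2 did not share this order, with 2668, 2440.3 and 2320.0 in CD103+ cDCs, 2820.2, 2106 and 2464 in CD14lo cDCs, 3034, 2915 and 3314 in CD14hi moDCs and 2398, 2068 and 2895 in Ly6Chi moDCs. Its mean was highest in CD14hi moDCs, a second probe set was highest in CD103+ cDCs, and the F test was not passed (adjusted p = 0.15).

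The immunity-related GTPases act at the same vacuoles, and all 4 measured members differed between populations by the F test, where 51.1% of all genes did. Ifi47, or Irg47, was at 815, 719 and 762 in CD103+ cDCs, 2162, 2255 and 2547 in CD14lo cDCs, 1393, 1326 and 1225 in CD14hi moDCs and 3140.0, 3245 and 3524 in Ly6Chi moDCs. No 2 populations overlapped, and all 6 pairs were called. CD103+ cDCs were 2.91-fold below CD14lo cDCs (log2 difference -1.54 ± 0.13, adjusted p = 5.5e-08), and CD14hi moDCs were 1.74-fold below CD14lo cDCs (log2 difference -0.80 ± 0.13, adjusted p = 0.00027). Ly6Chi moDCs were 2.46-fold above CD14hi moDCs (log2 difference 1.30 ± 0.13, adjusted p = 8.7e-07). The order was therefore CD103+ cDC, CD14hi moDC, CD14lo cDC and Ly6Chi moDC, which crosses the division into cDCs and moDCs.

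Igtp, or Irgm3, had a like order, with 1234, 867 and 1022 in CD103+ cDCs, 1518, 1764 and 1838 in CD14lo cDCs, 1339.7, 1553 and 1373 in CD14hi moDCs and 2482, 2653 and 2875 in Ly6Chi moDCs. Ly6Chi moDCs exceeded CD14hi moDCs 1.85-fold (log2 difference 0.89 ± 0.15, adjusted p = 0.0003), and CD103+ cDCs were 1.62-fold below CD14lo cDCs (log2 difference -0.70 ± 0.15, adjusted p = 0.0017). Irgm1, a regulator of the other members, had 444, 505 and 393 in CD103+ cDCs, 534, 654 and 669.9 in CD14lo cDCs, 453, 314 and 301 in CD14hi moDCs and 732, 738 and 841 in Ly6Chi moDCs. Its lowest mean was in CD14hi moDCs, 2.04-fold below Ly6Chi moDCs (Ly6Chi minus CD14hi 1.03 ± 0.18, adjusted p = 0.0004) and 1.66-fold below CD14lo cDCs (log2 difference -0.73 ± 0.18, adjusted p = 0.0075). Iigp1 was dim, with 205, 138 and 125 in CD103+ cDCs, 173, 143 and 308 in CD14lo cDCs, 313, 379 and 259.6 in CD14hi moDCs and 418, 360.1 and 418 in Ly6Chi moDCs. It was the 1 gene of these 4 whose CD14lo cDCs overlapped CD103+ cDCs, and cDCs were 1.8-fold below moDCs (log2 difference -0.84 ± 0.17, adjusted p = 0.00042).

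Of the ISG15 pathway, Isg15 itself was not analysed here. Usp18 removes ISG15 from proteins and dampens signalling at Ifnar2, and its signals were 1726, 1575 and 1490.0 in CD103+ cDCs, 2088, 1633 and 2066 in CD14lo cDCs, 1359, 1284 and 1709 in CD14hi moDCs and 2747, 2412 and 2200.0 in Ly6Chi moDCs. Ly6Chi moDCs were highest on every array and exceeded CD14hi moDCs 1.67-fold (log2 difference 0.74 ± 0.15, adjusted p = 0.0017). Herc6, the ISG15 ligase of the mouse, was at 1421, 1324 and 1347 in CD103+ cDCs, 1167, 1374 and 1369.8 in CD14lo cDCs, 1122, 1064 and 975 in CD14hi moDCs and 1253, 724 and 1185 in Ly6Chi moDCs. It had its highest mean in CD103+ cDCs and did not pass the F test (adjusted p = 0.14). Its call as higher in cDCs than in moDCs (log2 difference 0.34 ± 0.12, adjusted p = 0.035) was lost in 7 of the 12 fits that left out an array and with median centring (limma adjusted p = 0.065).

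Among the direct antiviral effectors, Rsad2 encodes viperin, which makes a chain-terminating nucleotide, and Cmpk2, its neighbour in the genome, a mitochondrial nucleotide kinase. Rsad2 was at 2824, 2454 and 2754 in CD103+ cDCs, 4150.3, 3773 and 4727 in CD14lo cDCs, 5049.7, 3901 and 4775 in CD14hi moDCs and 8246, 6935 and 7797 in Ly6Chi moDCs. Cmpk2 was at 156, 148 and 104 in CD103+ cDCs, 225, 274 and 371 in CD14lo cDCs, 586, 464 and 359 in CD14hi moDCs and 915, 829 and 757 in Ly6Chi moDCs. Both were lowest in CD103+ cDCs and highest in Ly6Chi moDCs on every array, and only CD14lo cDCs and CD14hi moDCs overlapped. Ly6Chi moDCs exceeded CD14hi moDCs 1.67-fold for Rsad2 (log2 difference 0.74 ± 0.13, adjusted p = 0.0006), and CD103+ cDCs were 2.82-fold below Ly6Chi moDCs (log2 difference -1.50 ± 0.13, adjusted p = 3.1e-08). For Cmpk2 the span from CD103+ cDCs to Ly6Chi moDCs was 4.78-fold (log2 difference -2.26 ± 0.21, adjusted p = 5.1e-08). Its step from CD14hi to Ly6Chi moDCs (log2 difference 0.79 ± 0.21, adjusted p = 0.013) was lost without CD14hi moDC replicate 3 (adjusted p = 0.076) or Ly6Chi moDC replicate 1 (0.057).

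Isg20, an exonuclease that degrades single-stranded RNA, paired populations in another way. Its signals were 1304, 520.4 and 673 in CD103+ cDCs, 2291, 1495 and 2759 in CD14lo cDCs, 712, 633 and 934 in CD14hi moDCs and 1999, 1909.6 and 2249 in Ly6Chi moDCs. CD14lo cDCs and Ly6Chi moDCs were high and overlapped, CD103+ cDCs and CD14hi moDCs were low and overlapped, and no array of the first pair fell among those of the second. CD14hi moDCs were 2.71-fold below CD14lo cDCs (log2 difference -1.44 ± 0.26, adjusted p = 0.00064) and Ly6Chi moDCs 2.62-fold above CD14hi moDCs (log2 difference 1.39 ± 0.26, adjusted p = 0.00079). The differences within the pairs were -0.05 ± 0.26 for Ly6Chi moDCs against CD14lo cDCs (adjusted p = 0.93) and 0.04 ± 0.26 for CD103+ cDCs against CD14hi moDCs (adjusted p = 0.92).

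Bst2 encodes tetherin, which holds budding virions at the cell surface. It was at 3311, 2818 and 2003 in CD103+ cDCs, 4703, 2732 and 3319 in CD14lo cDCs, 4917, 4920.1 and 4955 in CD14hi moDCs and 5961, 6564 and 5667 in Ly6Chi moDCs. The 2 cDC populations overlapped each other and lay below the moDCs, 1.78-fold (log2 difference -0.83 ± 0.13, adjusted p = 4e-05). Samd9l, which restricts poxviruses, was at 1227, 1800.5 and 1700.2 in CD103+ cDCs, 1517, 1753 and 1945 in CD14lo cDCs, 1612, 1308 and 1405 in CD14hi moDCs and 1725, 1901 and 1523 in Ly6Chi moDCs, and its populations overlapped (limma F test, adjusted p = 0.45).

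Stat2, a subunit of ISGF3, and the ADP-ribosylation genes differed little, with 1 of the 4, Dtx3l, passing the F test (51.1% of all genes did). Stat2 was at 2724, 2274 and 2028 in CD103+ cDCs, 1731, 1441 and 2103 in CD14lo cDCs, 1382, 1460.2 and 1925 in CD14hi moDCs and 1641, 1953 and 1667 in Ly6Chi moDCs. Its mean was highest in CD103+ cDCs, limma gave an adjusted F test p of 0.051, and its call over CD14hi moDCs (log2 difference 0.55 ± 0.17, adjusted p = 0.016) did not hold with CD103+ cDC replicate 1 left out (limma adjusted p = 0.076), nor with replicate 1 (0.076) or 2 (0.062) of the CD14hi moDCs. A second Stat2 probe set was highest in Ly6Chi moDCs. Parp9 was at 1749, 1673 and 1579 in CD103+ cDCs, 1596, 1651 and 1822 in CD14lo cDCs, 1377, 1319 and 1459 in CD14hi moDCs and 1673, 1349 and 1849 in Ly6Chi moDCs, without a call (limma F test, adjusted p = 0.3). Dtx3l, the ubiquitin ligase that forms a complex with Parp9, was at 2348, 2581 and 2718 in CD103+ cDCs, 1855, 2420.0 and 2315 in CD14lo cDCs, 1681, 1746 and 1394 in CD14hi moDCs and 2494, 2256 and 3045 in Ly6Chi moDCs. Dtx3l was low in CD14hi moDCs, 1.59-fold below Ly6Chi moDCs (Ly6Chi minus CD14hi 0.67 ± 0.15, adjusted p = 0.0038) and 1.57-fold below CD103+ cDCs (CD103+ minus CD14hi 0.65 ± 0.15, adjusted p = 0.0022). Parp14, another ADP-ribosyltransferase, was at 3339.9, 1910.1 and 4022 in CD103+ cDCs, 3427, 3772 and 4541 in CD14lo cDCs, 3018, 2871 and 3581 in CD14hi moDCs and 4368, 3838 and 6019 in Ly6Chi moDCs. Its arrays scattered widely within CD103+ cDCs and Ly6Chi moDCs, and limma gave an adjusted F test p of 0.06.

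Rtp4, a transmembrane chaperone that also limits viral replication, had the widest span of the 39 genes. Its signals were 420.5, 309 and 371 in CD103+ cDCs, 2258, 2067 and 2672 in CD14lo cDCs, 2117, 1859.7 and 2016 in CD14hi moDCs and 3821, 4242 and 4142 in Ly6Chi moDCs. CD14lo cDCs and CD14hi moDCs overlapped, above the CD103+ cDCs and below the Ly6Chi moDCs. CD103+ cDCs were 9.94-fold below Ly6Chi moDCs (log2 difference -3.31 ± 0.15, adjusted p = 2.1e-12) and 5.72-fold below CD14lo cDCs (log2 difference -2.52 ± 0.15, adjusted p = 4.3e-10), and Ly6Chi moDCs were 2.01-fold above CD14hi moDCs (log2 difference 1.01 ± 0.15, adjusted p = 5.9e-05). Lgals3bp, a secreted glycoprotein, was at 4320.2, 3167 and 3961 in CD103+ cDCs, 5507, 4951 and 5722 in CD14lo cDCs, 7862, 8142 and 8871 in CD14hi moDCs and 8774, 7969.8 and 9939 in Ly6Chi moDCs. It divided by lineage, the moDC populations overlapping each other (log2 difference 0.10 ± 0.13, adjusted p = 0.69) and exceeding the cDCs 1.89-fold (cDC minus moDC -0.92 ± 0.09, adjusted p = 2.5e-07).

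Tor3a, a torsin ATPase of the endoplasmic reticulum, was higher in 1 population than in the rest. It was at 1013, 921 and 917 in CD103+ cDCs, 780.0, 715 and 771 in CD14lo cDCs, 769, 933 and 946 in CD14hi moDCs and 1365, 1513 and 1572 in Ly6Chi moDCs. Ly6Chi moDCs exceeded CD14hi moDCs 1.65-fold (log2 difference 0.72 ± 0.14, adjusted p = 0.0014) and CD14lo cDCs 1.9-fold (log2 difference 0.93 ± 0.14, adjusted p = 7e-05), and the difference between the cDC populations was 0.31 ± 0.14 (adjusted p = 0.12). Xaf1, an antagonist of the apoptosis inhibitor XIAP, was at 4147, 3779.5 and 3203 in CD103+ cDCs, 5715, 3627 and 5755 in CD14lo cDCs, 3999, 3427 and 4135 in CD14hi moDCs and 6221, 6379 and 6089 in Ly6Chi moDCs. Its Ly6Chi moDC arrays were above all others and 1.61-fold above CD14hi moDCs (log2 difference 0.69 ± 0.16, adjusted p = 0.005). Ifi35 went the other way, with 14132, 10275 and 13754 in CD103+ cDCs, 11055, 11319 and 10475 in CD14lo cDCs, 7818, 7701 and 8103 in CD14hi moDCs and 8987, 9778 and 10060.0 in Ly6Chi moDCs. It was 1.6-fold higher in CD103+ cDCs than in CD14hi moDCs (log2 difference 0.67 ± 0.12, adjusted p = 0.00027; adjusted p = 0.067 without CD103+ cDC replicates 1 and 3), and all 3 of its probe sets were lowest in CD14hi moDCs. Its call over Ly6Chi moDCs (log2 difference 0.39 ± 0.12, adjusted p = 0.014) did not hold with replicate 1 (0.074, adjusted p) or 3 (0.064) of the CD103+ cDCs left out, nor with replicate 1 of the Ly6Chi moDCs (0.065). It was also lost with median centring (log2 difference 0.27, limma adjusted p = 0.18), quantile normalization (0.18, adjusted p = 0.16) and the mean of its probe sets (0.24, adjusted p = 0.14), and without CD103+ cDC replicates 1 and 3 the difference was 0.098 (adjusted p = 0.64).

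The genes upstream of these targets were read from lists of ligands, receptors, signalling proteins and adaptors. Of 8 interferon genes listed, 6 had a probe set and 1 passed the filter. That gene, Ifna1, had signals of 177, 158 and 157 in CD103+ cDCs, 102, 117 and 121 in CD14lo cDCs, 164, 82 and 102 in CD14hi moDCs and 106, 168 and 93 in Ly6Chi moDCs. The CD103+ and CD14lo cDC arrays did not overlap each other, every other pair of populations did, and no difference was called (limma F test, adjusted p = 0.36). Ifnb1, which encodes interferon-beta, was not tested because fewer than 3 of its arrays lay above the array median, the filter used here. Its signals were 9.95, 4.18 and 27.1 in CD103+ cDCs, 40.5, 25 and 11 in CD14lo cDCs, 327, 77.5 and 219 in CD14hi moDCs and 71.1, 30.4 and 47.3 in Ly6Chi moDCs. The 3 CD14hi moDC values were the highest listed, but 1 of them, 77.5, lay below the median signal of its array and close to the highest Ly6Chi moDC value, so no order is read from them. Ifng was at most 23.5 on any array, and population means were at most 17.2 ± 13.5 for Ifna4, 11.8 ± 10.2 for Ifna2 and 70.5 ± 34.2 for Ifna5.

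**Figure D4:**
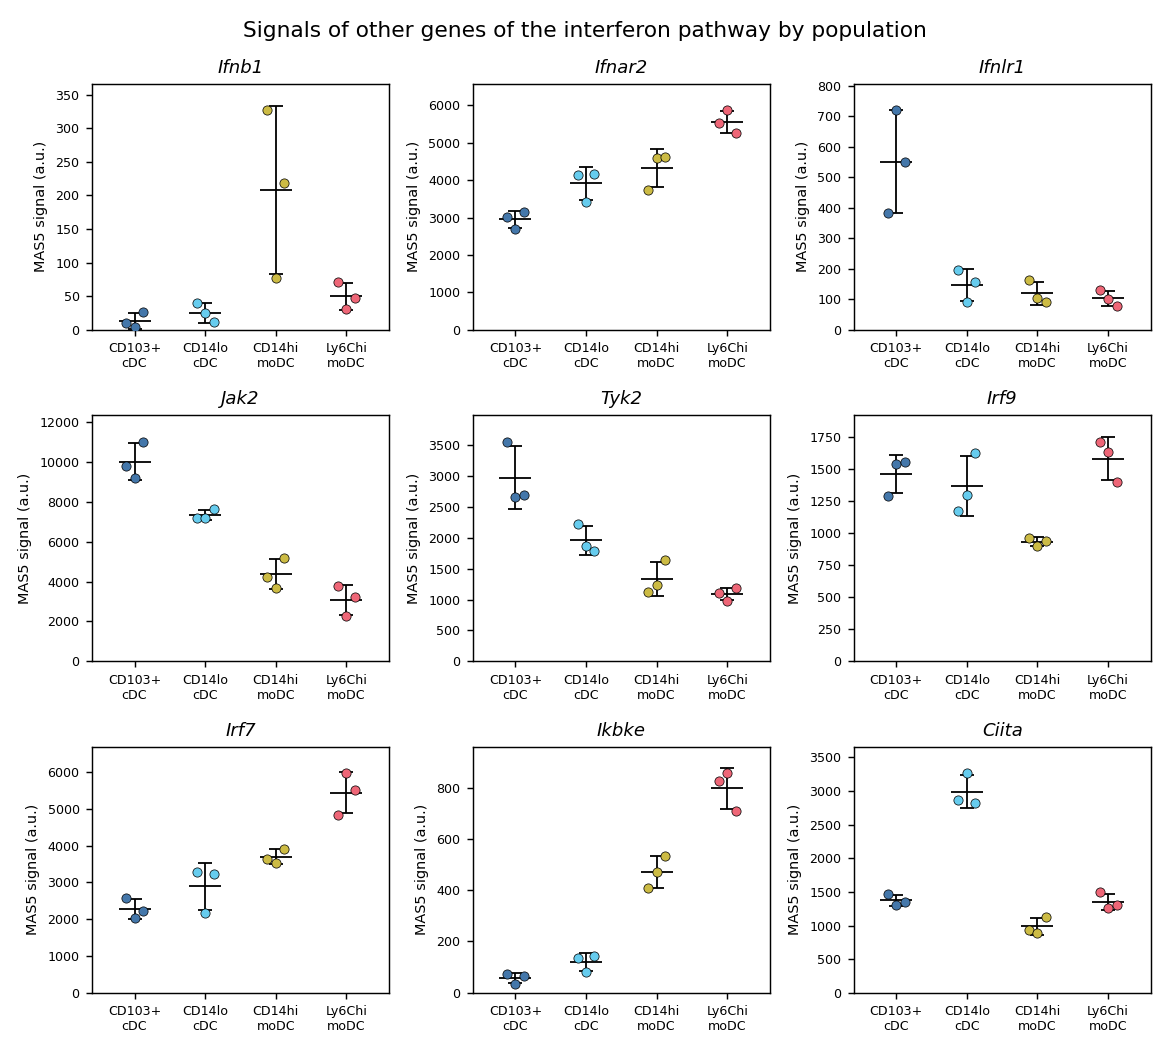
Signals (y axis, deposited MAS5 signal, linear from 0) of 9 genes of interferon production, reception and signalling in the 4 populations; points are the 3 arrays and bars the mean with SD. Ifnb1, which did not pass the filter, had its highest mean in CD14hi moDCs, Ifnlr1, Jak2 and Tyk2 were highest in CD103+ cDCs, and Ifnar2, Irf7 and Ikbke were highest in Ly6Chi moDCs.

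All 5 receptor genes were tested; CD103+ cDCs exceeded Ly6Chi moDCs for 1 (23.2% of all genes) and were lower for 3 (24.3%). The exception was Ifnlr1, the specific chain of the receptor for interferon-lambda. Its signals were 382, 719.8 and 551 in CD103+ cDCs, 195, 92.2 and 156 in CD14lo cDCs, 164, 103 and 92.4 in CD14hi moDCs and 129, 100 and 79.4 in Ly6Chi moDCs. No other population reached the CD103+ cDCs, which were 3.03-fold above CD14lo cDCs (log2 difference 1.60 ± 0.26, adjusted p = 0.00011) and 3.86-fold above Ly6Chi moDCs (log2 difference 1.95 ± 0.26, adjusted p = 4.9e-06). Ifnar2 was at 3020.1, 2694 and 3142 in CD103+ cDCs, 4145, 3412 and 4174 in CD14lo cDCs, 3739.8, 4601 and 4622 in CD14hi moDCs and 5522, 5873 and 5265 in Ly6Chi moDCs. Ly6Chi moDCs were highest on every array and CD103+ cDCs 1.87-fold below them (log2 difference -0.90 ± 0.13, adjusted p = 1.5e-05), while the partner chain Ifnar1 was not called (limma F test, adjusted p = 0.58). Of the interferon-gamma receptor, Ifngr1 averaged 2123 ± 660.5, 3819 ± 134, 2649 ± 36.4 and 3882 ± 305 in CD103+ cDCs, CD14lo cDCs, CD14hi moDCs and Ly6Chi moDCs, with CD103+ cDCs 1.86-fold below Ly6Chi moDCs (log2 difference -0.90 ± 0.17, adjusted p = 0.00022). Ifngr2 was 1.38-fold lower there (log2 difference -0.47 ± 0.13, adjusted p = 0.0048; adjusted p = 0.25 with the mean of its probe sets).

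Of 10 genes of JAK-STAT and IRF signalling, 8 were tested; CD103+ cDCs exceeded Ly6Chi moDCs for 3, the kinases Jak2 and Tyk2 and the factor Irf1 (23.2% of all genes), and were lower for 2, Irf7 and the phosphatase Ptpn6 (24.3%). These counts are near the shares of all genes. Jak2 was at 9785, 9210.1 and 11029 in CD103+ cDCs, 7196, 7175 and 7649 in CD14lo cDCs, 4225, 3693 and 5182 in CD14hi moDCs and 3759, 2274 and 3228 in Ly6Chi moDCs. Tyk2 was at 3562, 2661 and 2701 in CD103+ cDCs, 2227, 1871 and 1787 in CD14lo cDCs, 1125, 1233 and 1646 in CD14hi moDCs and 1107, 982 and 1186 in Ly6Chi moDCs. Both kinases thus ran opposite to most of the 39 genes, with cDCs over moDCs 2.35-fold for Jak2 (log2 difference 1.23 ± 0.12, adjusted p = 7.3e-08) and 1.96-fold for Tyk2 (log2 difference 0.97 ± 0.12, adjusted p = 1.9e-06). Irf7, the factor that amplifies interferon production and is itself interferon-induced, was at 2581, 2042 and 2220.2 in CD103+ cDCs, 3285, 2160.3 and 3229 in CD14lo cDCs, 3638, 3524 and 3920.2 in CD14hi moDCs and 4844, 5973 and 5512 in Ly6Chi moDCs. It was 2.36-fold lower in CD103+ cDCs than in Ly6Chi moDCs (log2 difference -1.24 ± 0.16, adjusted p = 2.9e-06) and 1.89-fold higher in Ly6Chi moDCs than in CD14lo cDCs (log2 difference 0.92 ± 0.16, adjusted p = 0.0002). Ptpn6 was 1.95-fold lower in CD103+ cDCs than in Ly6Chi moDCs (log2 difference -0.96 ± 0.14, adjusted p = 1.5e-05). Irf9, named after its values were seen because it completes ISGF3, was at 1287, 1536 and 1554 in CD103+ cDCs, 1172, 1301 and 1626 in CD14lo cDCs, 964, 899 and 939 in CD14hi moDCs and 1715, 1633 and 1396 in Ly6Chi moDCs, 1.65-fold higher in Ly6Chi than in CD14hi moDCs (log2 difference 0.72 ± 0.15, adjusted p = 0.0022).

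Of the adaptors and kinases that carry sensor signals, 7 were tested; CD103+ cDCs were lower than Ly6Chi moDCs for 2, Ikbke and Mavs, and higher for none by limma, with 1, Ticam1, higher at an unadjusted p under 0.05. With 24.3% of all genes lower, 2 of 7 is near the share of all genes, and 23.2% of all genes were higher. Ikbke, the inducible kinase that activates Irf3 and Irf7, was at 74, 35 and 63.5 in CD103+ cDCs, 135, 80 and 145 in CD14lo cDCs, 410.0, 469.6 and 535 in CD14hi moDCs and 827, 857 and 708 in Ly6Chi moDCs. The moDC arrays did not overlap the cDC arrays, and cDCs were 4.97-fold lower (log2 difference -2.31 ± 0.15, adjusted p = 4.6e-10). CD14hi moDCs were 3.1-fold above CD14lo cDCs (log2 difference 1.63 ± 0.21, adjusted p = 1.9e-05). Mavs, the adaptor of RIG-I and MDA5, was 2.09-fold lower in cDCs than in moDCs (log2 difference -1.06 ± 0.22, adjusted p = 0.00077), and its difference between CD103+ cDCs and Ly6Chi moDCs (log2 difference -1.53 ± 0.32, adjusted p = 0.00055) had an adjusted p of 0.069 without CD103+ cDC replicates 1 and 3. Sting1, the adaptor for cytosolic DNA, was 1.54-fold lower in CD14hi moDCs than in CD14lo cDCs (log2 difference -0.63 ± 0.12, adjusted p = 0.00075), and Cgas, the DNA sensor that feeds it, was 1.77-fold higher in CD103+ cDCs than in CD14hi moDCs (log2 difference 0.83 ± 0.17, adjusted p = 0.00074). The related kinase Tbk1 was not called (limma F test, adjusted p = 0.33).

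Targets known best for interferon-gamma did not share 1 order. Of 10 listed, 6 were tested; CD103+ cDCs were lower than Ly6Chi moDCs for 3, Cxcl9, Gbp6 and Irgm2 (24.3% of all genes), and higher for 1, Irf1 (23.2%). Gbp6 was at 145, 154 and 125 in CD103+ cDCs, 146, 117 and 144 in CD14lo cDCs, 443, 429 and 462 in CD14hi moDCs and 797, 595 and 755 in Ly6Chi moDCs, a step between lineages of 3.26-fold (cDC minus moDC -1.70 ± 0.13, adjusted p = 2.9e-09). Ciita, the master regulator of MHC class II genes, was highest in CD14lo cDCs, at 2868, 3268 and 2829, against 1466, 1304 and 1349 in CD103+ cDCs, 940.1, 896 and 1128 in CD14hi moDCs and 1491, 1255 and 1307 in Ly6Chi moDCs. CD14hi moDCs were 2.93-fold below CD14lo cDCs (log2 difference -1.55 ± 0.14, adjusted p = 3e-07). Irgm2 was 2.07-fold lower in CD103+ cDCs than in Ly6Chi moDCs (log2 difference -1.05 ± 0.16, adjusted p = 1.9e-05).

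The 3 chemokines that bind CXCR3 were all called lower in CD103+ cDCs than in Ly6Chi moDCs, as were 24.3% of all genes. Cxcl10 averaged 1398 ± 679.7, 3479 ± 1001, 6260.5 ± 1148 and 8281 ± 481 in CD103+ cDCs, CD14lo cDCs, CD14hi moDCs and Ly6Chi moDCs, a 6.16-fold span from first to last (log2 difference -2.62 ± 0.25, adjusted p = 8.8e-08). Cxcl11 was 2.56-fold higher in Ly6Chi than in CD14hi moDCs (log2 difference 1.35 ± 0.23, adjusted p = 0.00036), where Cxcl9 showed a 1.89-fold excess (log2 difference 0.92 ± 0.14, adjusted p = 7.9e-05). Cxcl10 was not called between the moDC populations (log2 difference 0.42 ± 0.25, adjusted p = 0.3).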

How the data were processed

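RNA from 12 sorted samples was measured on arrays of 45101 probe sets. The authors deposited MAS5 signals, an intensity per probe set on a linear scale, per the submitters' processing notes; which MAS5 version was used is not given in the sources here. Each array had a trimmed mean (2% at each end) of 500.003, so the deposited values were already scaled. Probe sets above the array median on 3 or more of the 12 arrays were analysed (25138), controls (64) excepted. A single symbol was given for 34945 probe sets, more than 1 for 932 and no symbol for 9160; each gene took its brightest probe set with 1 symbol, which left 10929 genes. Values were log2(signal + 50.0003), the pseudocount being 10% of the trimmed mean. Populations were compared with limma 3.58.1 (R 4.3.3; lmFit and eBayes with an intensity trend, all 12 arrays, 8 residual degrees of freedom, Benjamini-Hochberg adjustment over all genes, calls under 0.05); the script was tested on simulated data. Plots used matplotlib 3.10.9. The number of arrays, 3 a population, limits the precision, and p-values measure the spread between these sorted pools.

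The genes, their roles and the pathway and marker lists were chosen with earlier results of these data known, so no p-value over the list is given. All genes of the list may be named; signals of every array are printed for up to 4 genes of each role with the widest span and for genes with another highest population than most of their role. Of each pathway list, up to 4 called genes with the widest span are named, and the ligands whatever their values. Alternatives covered quantile and median normalization, pseudocounts of 2% and 40% of the trimmed mean, no filter and a filter at the 75th percentile, the mean of all probe sets, fits without the trend, on only the arrays compared or with a replicate block, and leaving out each array.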

Additional observations from a re-analysis of the deposited data

How the results depend on the processing

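Over all alternatives, no called difference of a listed or pathway gene changed direction. Of 2364 values under another normalization, pseudocount, filter, probe set rule or fit, 2281 kept the call and 83 lost it; of 2892 values with 1 array left out, 2699 kept it and 193 lost it. The number of the 39 genes called highest in Ly6Chi moDCs against all others moved by more than 1.5 times once, from 17 to 11 without Ly6Chi moDC replicate 2, and ran from 11 to 18 over the 12 fits with an array left out and from 14 to 18 under those other settings; the cause was not tested. The number called lowest in CD103+ cDCs was 14, and 12 to 18 and 12 to 15 in the same order. Calls for Ly6Chi against CD14hi moDCs were 25, and 19 to 26 and 24 to 30, and those for cDCs against moDCs 23, and 22 to 23 and 22 to 24. Median centring moved the median of all genes to 0.21 in Ly6Chi against CD14hi moDCs, 0.11 in Ly6Chi moDCs against CD14lo cDCs, -0.11 in CD14hi moDCs against CD14lo cDCs and -0.14 in CD103+ cDCs against Ly6Chi moDCs; the medians of the 39 genes there were 0.91, 0.63, -0.35 and -1.18. Of 18 pairs of arrays with the same replicate number in different populations, 8 had deviations correlating over 0.1 (range -0.11 to 0.24), so the numbers were not taken as a pairing, though 10 of 12 arrays correlated best with their own number. A replicate block gave 23 calls for cDCs against moDCs, where all 10929 genes gave 2304 higher and 2308 lower. For CD103+ against CD14lo cDCs it gave 20 (all genes, 1516 higher and 1716 lower). For CD14hi moDCs against CD14lo cDCs it gave 10 (all genes, 1036 and 813), and for Ly6Chi against CD14hi moDCs 26 (all genes, 784 and 1275). Leaving out CD103+ cDC replicates 1 and 3 was an alternative chosen after seeing the data. It leaves 1 array assumed to vary like the other populations. The median difference of the 39 genes in CD103+ cDCs was then -0.54 against CD14lo cDCs, -0.50 against CD14hi moDCs and -1.16 against Ly6Chi moDCs. Over all genes it was -0.01, 0.001 and 0.001 in the same order. Signals near the array median are close to background, which limits the dim genes, Iigp1, Mx2 and the interferons among them.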
